A study of Mus musculus with 6 samples.

Results

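Sox4, Sox11 and Sox12 are the SoxC genes, and they were taken from the data by their mouse symbols, as 3 of 43346 annotated genes in the tables. The other Sox genes of the mouse numbered 16 in the same tables. RNA-seq was performed on purified mouse RGCs, the neurons that send the axons of the optic nerve, to ask which genes respond to Sox11 and whether lysine 91 of Sox11 matters for that response. There were 3 groups with 2 libraries each. Control RGCs, labelled CONTROL, were transduced with a control AAV that encodes EGFP. Sox11 RGCs, labelled SOX11_WT, were transduced with an AAV that encodes wild-type Sox11, and Sox11 K91A RGCs, labelled SOX11_MUTANT, with one that encodes Sox11 with alanine in place of lysine 91. According to the study's methods the vectors were AAV2 and the Sox11 plasmids also carried EGFP behind an IRES.

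The methods of the study name C57BL/6 mice of both sexes and no engineered allele, and the promoter of the viral constructs is not given in the sources used here. The cells of every group were selected with an antibody to CD90.1 and kept in medium with forskolin, BDNF and CNTF, so each group, control included, was exposed to these agents. The age is given as embryonic day 18 for the RNA-seq cultures and as postnatal day 2 for the general culture method, and the library names give postnatal day 0. AAV was added 4 h after plating at about 100000 vector genomes per cell, and RNA was taken 72 h after plating from cultures of 250000 cells per well. The libraries were duplicates. The study's methods state that wells were plated in quadruplicate and that 3 RNA samples were sequenced in duplicate. This wording does not settle whether duplicates came from separate cultures. The p-values therefore measure only the spread between these libraries, which may be technical.

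SoxC proteins are transcription factors that bind DNA through an HMG box, a domain that bends the double helix, and activate genes through a separate region at their C-terminal end. Sox4 and Sox11 act in newly born neurons, where they promote neuronal differentiation, and both are needed for the formation of RGCs. Sox12 is the weakest activator of the 3 and is usually expressed together with the others.

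The site that was mutated in Sox11 was read from the reference coding sequences, because it is the only designed difference between the Sox11 and the Sox11 K91A virus. The 63 bases around it are shown for Sox11 and Sox4 from GENCODE M21 on GRCm38, 5′ to 3′ on the minus strand, on which both genes lie. The codon at or aligned with residue 91 of Sox11 is in capitals, and the stretch lies in the coding part of a single exon in each gene.
Sox11, chr12:27342106-27342168: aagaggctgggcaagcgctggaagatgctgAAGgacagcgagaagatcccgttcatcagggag
Sox4, chr13:28952689-28952751: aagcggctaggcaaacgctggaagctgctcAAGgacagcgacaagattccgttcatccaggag
Sox4 has a lysine codon at the aligned position, its residue 101. The lysine that was replaced in the mutant is thus shared by Sox11 and Sox4. Over these 63 bases the genes had 54 identical bases, and over the 21 residues they encode 18 identical residues.

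The translated proteins were 440 residues long for Sox4, 395 for Sox11 and 314 for Sox12. Over the shorter protein of each pair, identity was 48.6% for Sox11 and Sox4, 50.6% for Sox11 and Sox12, and 53.8% for Sox4 and Sox12. In the best conserved stretch of 79 residues, residues 41 to 119 of Sox11, which holds the HMG box, identity rose to 93.7%, 87.3% and 88.6% for these pairs. Reads can be told apart between the genes in spite of this likeness, since the estimated counts of the 3 genes were whole numbers in all 6 libraries and the posterior SD of a count, which RSEM gives as its uncertainty in sharing out reads, was at most 5.31 reads for Sox4, 0.03 for Sox11 and 0 for Sox12.

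Sox4 (ENSMUSG00000076431) is annotated at chr13:28948919-28953713, Sox11 (ENSMUSG00000063632) at chr12:27334264-27342574 and Sox12 (ENSMUSG00000051817) at chr2:152393611-152398063 of GRCm38. The main transcript of each has 1 exon, and the coding part makes up 27.6% of the Sox4 transcript, 14.3% of the Sox11 transcript and 21.2% of the Sox12 transcript. A noncoding gene, Gm26735, overlaps Sox4 on the opposite strand and was listed at 0 in every library. No annotated gene overlaps Sox11 or Sox12.

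The libraries held 27521981 to 37061718 counts over the annotated genes. Control and transduced libraries lay apart on principal component 1 (62.9% of variance), and Control 2 and Sox11 2 lay apart from the other 4 on component 2 (18.2%). These libraries also had less Xist, the noncoding RNA of the inactive X chromosome, at 30.3 and 56.9 TPM against 72.9 to 107 TPM in the other 4. RGC identity was checked with 10 marker genes, all detected. Rbpms lay between 202 and 262 TPM and Pou4f1 between 183 and 225 TPM, while the summed level of the 10 markers was 10100 to 11040 TPM in control libraries and 4459 to 7605 TPM in transduced libraries, with Nefl, Nefm, Thy1 and Slc17a6 lower in each transduced library than in both control libraries. Pou4f3 went the other way, at 49.7 and 55.4 TPM in control and 61.2 to 78.8 TPM in transduced libraries. Markers of Mueller glia and astrocytes summed to 73.1 to 83.7 TPM in control and 205 to 250 TPM in transduced libraries, almost all of it Glul, with Gfap at 0 in every library. Rlbp1 went the other way, at 1.16 and 3.46 TPM in control and 0.18 to 0.71 in transduced libraries. So did Slc1a3, at 1.07 and 0.61 TPM in control and 0.04 to 0.52 in transduced libraries. Aldh1l1 was at 0.84 and 0.43 TPM in control and 1.05 to 3.24 in transduced libraries. Amacrine markers summed to 122.8 TPM in Control 1 and 41.7 in Control 2, and to 62.35 in Sox11 1 and 26.3 in Sox11 2. With Sox11 K91A they summed to 60.0 and 56.6 TPM. Each marker on this list was lower in Control 2 than in Control 1, with Gad1 at 1.83 against 25.53 TPM. The other lists stayed low, with 14.8 to 30.0 TPM for bipolar cells, 16.2 to 24.8 for oligodendrocyte lineage cells and 0.43 to 1.76 for photoreceptors. Most of the bipolar sum was Prkca (13.1 to 28.8 TPM), with Vsx1 at 0 in every library. Most of the oligodendrocyte sum was Mbp (12.2 to 24.1 TPM), with Olig2 at 0 in every library. Sums were 0.45 to 3.88 TPM for microglia, 1.37 to 4.42 for endothelial cells, 1.98 to 8.47 for fibroblasts and 1.36 to 3.03 for dividing cells. The part of these markers in the SoxC levels was not tested.

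Control RGCs expressed all 3 SoxC genes at substantial levels. In TPM, a share of all transcripts that takes transcript length into account, Sox4 was at 130.72 in Control 1 and 121.18 in Control 2, a mean of 126 ± 6.75 (SD, n = 2). Sox12 was at 86.44 and 68.53 TPM, with a mean of 77.5 ± 12.7, and Sox11 at 56.86 and 73.42 TPM, with a mean of 65.1 ± 11.7. Sox4 was thus the most abundant SoxC transcript in both control libraries. The levels of Sox12 and Sox11 overlapped, since Sox12 was higher in Control 1 and Sox11 in Control 2. Sox4 ranked 1522 and 1578 among all genes by TPM, and Sox11 and Sox12 lay between ranks 2389 and 3582. As CPM, counts scaled to library size, divided by gene length, Sox4 was again highest, and Sox12 and Sox11 again exchanged places between the 2 control libraries.

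Sox11, the gene carried by both active viruses, was examined next because it checks the labels. It was higher in each of the 4 transduced libraries than in either control library. The level was 2256.12 TPM in Sox11 1, 3630.69 in Sox11 2, 2889.31 in Sox11 K91A 1 and 1681.65 in Sox11 K91A 2, against 56.86 and 73.42 in control. The estimated counts were 252161, 483694, 385765 and 204868 in the transduced libraries and 6544 and 12786 in the control libraries. Sox11 thereby moved from ranks 2603 to 3582 among all genes in control RGCs to ranks 18 to 46 in transduced RGCs. The log2 fold change was 5.38 ± 0.326 (SE, adjusted p = 0.00753, limma-voom) with Sox11 and 5.04 ± 0.326 (adjusted p = 0.00919) with Sox11 K91A. Reads of the viral and of the endogenous gene were counted together, so the endogenous Sox11 level in transduced cells cannot be told apart from the viral one. TPM divides by the full annotated transcript of 8311 bases, and how much of it the virus carried is not given in the sources used here, so the Sox11 level per molecule in transduced cells is uncertain. Gene counts do not show the codon at position 91, so the mutant allele itself was not checked.

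**Figure D1:**
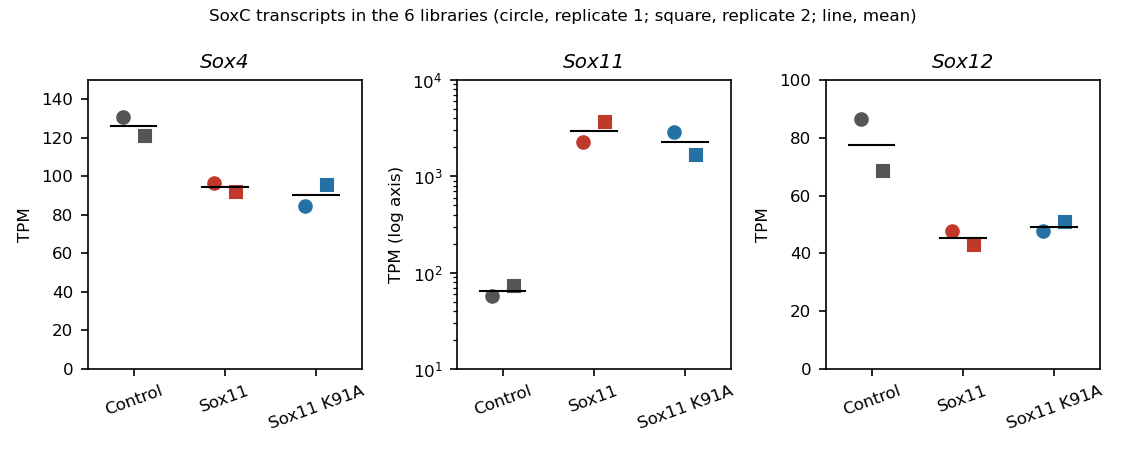
TPM of Sox4, Sox11 and Sox12 in each library of control, Sox11 and Sox11 K91A RGCs, with circles for replicate 1, squares for replicate 2 and a line for the group mean. The Sox11 axis is logarithmic, and the 4 transduced libraries sit at 1682 TPM or more, while Sox4 and Sox12 sit below both control libraries in all 4.

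The 2 viruses did not differ detectably in the amount of Sox11 RNA. Sox11 K91A against Sox11 gave a log2 difference of -0.34 ± 0.342 for Sox11, with a 95% interval from -1.15 to 0.48 and an adjusted p of 1.00 (limma-voom). The groups overlapped, since Sox11 1 lay between the 2 Sox11 K91A libraries. This interval is wide, and it does not show that the viruses gave equal amounts of RNA.

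Sox12 was the SoxC gene with the clearest decrease in transduced RGCs. It was at 86.44 and 68.53 TPM in control libraries, 47.78 and 43.01 TPM with Sox11, and 47.58 and 50.74 TPM with Sox11 K91A. Every transduced library was below both control libraries. The mean with Sox11 was 45.4 ± 3.37 TPM (SD, n = 2), or 58.6% of control, and with Sox11 K91A it was 49.2 ± 2.23 TPM, or 63.4% of control. Sox12 fell by 0.86 on the log2 scale with Sox11 (SE 0.146, 95% interval -1.204 to -0.51, adjusted p = 0.0157, limma-voom), and with Sox11 K91A by 0.70 (SE 0.146, -1.05 to -0.36, adjusted p = 0.0329). In these bulk samples, fewer cells that express a gene and less RNA of it per cell cannot be told apart.

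Sox4 was also lower in every transduced library, by a smaller amount. It was at 130.72 and 121.18 TPM in control, 96.36 and 92.05 TPM with Sox11, and 84.73 and 95.36 TPM with Sox11 K91A. The groups did not overlap with control in either comparison. The means were 94.2 ± 3.05 and 90.0 ± 7.52 TPM, or 74.8% and 71.5% of control. With Sox11, Sox4 fell by 0.51 on the log2 scale (SE 0.138, 95% interval -0.84 to -0.18, adjusted p = 0.0431, limma-voom), just inside the threshold. With Sox11 K91A the log2 difference was -0.54 (SE 0.138, -0.86 to -0.21), and the adjusted p of 0.0529 just missed the threshold. The log2 differences of Sox4 in the 2 comparisons were thus close, although only one passed. The comparisons share the 2 control libraries.

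These counts have to be read against how many genes passed. A gene was called when its FDR was under 0.05 and its fold change above 1.2. With Sox11, 20.1% of the 15747 genes tested were called, 9.96% higher and 10.2% lower, and of the SoxC genes Sox11 was called higher and Sox4 and Sox12 lower. With Sox11 K91A, 10.6% were called, 5.81% higher and 4.81% lower, and Sox11 was called higher, Sox12 lower and Sox4 not at all. How many of all genes also separated the control from the transduced libraries was not counted. The decreases were moderate among all genes. With Sox11, 72.3% of tested genes had a smaller absolute change than Sox12 and 53.4% a smaller one than Sox4. Sox11 itself took 0.70% to 1.45% of all counts in the transduced libraries and 0.02% to 0.03% in control.

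**Figure D2:**
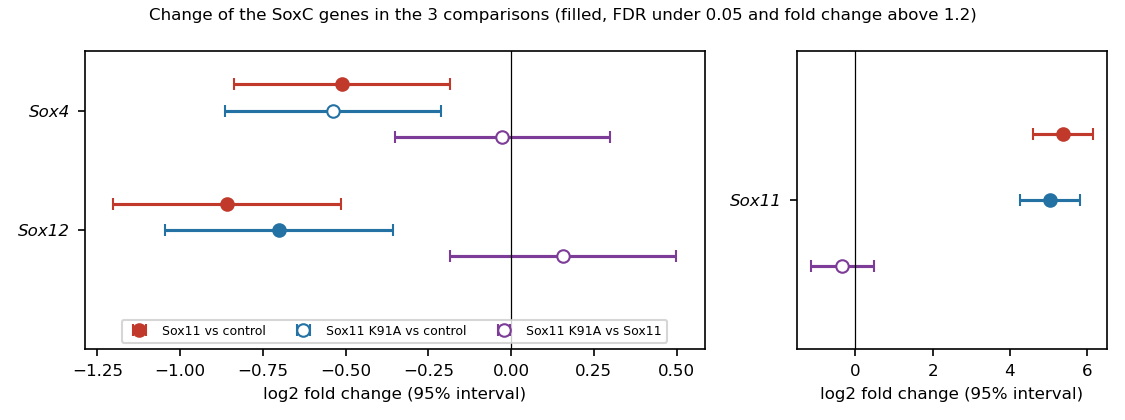
Log2 fold changes of Sox4, Sox12 and Sox11 from limma-voom in the comparisons of Sox11 with control, Sox11 K91A with control and Sox11 K91A with Sox11, with bars for the 95% interval. Filled points passed an FDR under 0.05 and a fold change above 1.2, and the intervals of Sox4 and Sox12 against control all lie below 0.

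With 2 libraries a group, a fit without 1 library leaves a group with 1. In some of these fits no gene was called, so sizes of change are given. Without Sox11 2, where no gene was called, the log2 difference with Sox11 was -0.77 for Sox12 and 5.04 for Sox11 itself. Sox4 with Sox11 lay between -0.55 and -0.47 in the leave-out fits and was called only in that without Control 1. With Sox11 K91A, no gene was called without Control 2 or Sox11 K91A 1. Sox12 lay between -0.81 and -0.60, and was also not called without Sox11 K91A 2. Sox11 lay between 4.66 and 5.42, and Sox4, between -0.63 and -0.45, was called only without Control 1. The direction against control did not turn for any of the 3 genes in these fits. Among 19 other settings, leave-out fits included, Sox12 was called with Sox11 in 18 and with Sox11 K91A in 14, and Sox4 in 9 and 5. Without both Control 2 and Sox11 2, the libraries with less Xist, Sox4 was at -0.46 with Sox11 (adjusted p = 0.0965) and at -0.53 with Sox11 K91A (adjusted p = 0.0371).

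**Figure D3:**
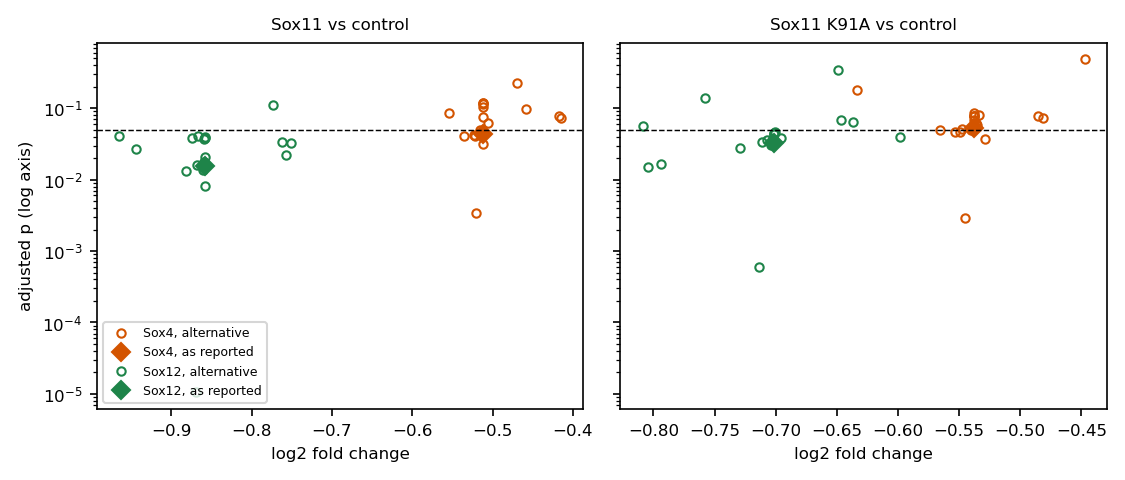
Adjusted p on a log axis against log2 fold change of Sox4 and Sox12, for the reported fit (diamonds) and each other setting (circles), with Sox11 against control on the left and Sox11 K91A against control on the right. The dashed line is the threshold of 0.05, and Sox4 lies on both sides of it at log2 fold changes from -0.63 to -0.41, whereas most Sox12 settings lie under it.

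Between the viruses, no SoxC gene passed the test. Sox4 differed by -0.03 on the log2 scale in Sox11 K91A against Sox11 (SE 0.137, 95% interval -0.35 to 0.30), and Sox12 by 0.16 (SE 0.145, -0.18 to 0.50), both with an adjusted p of 1.00 (limma-voom). In CPM, Sox12 was higher in both Sox11 K91A libraries, at 103 and 111, than in the Sox11 libraries, at 102 and 90.3. In TPM the groups overlapped. Over all genes tested, 0 (0% of 15747) were called by limma-voom and by edgeR in this comparison and 2 by DESeq2, and 108 had an unadjusted p under 0.05 in limma-voom, so the count of SoxC genes carries no information about these genes. The intervals leave room for a difference of up to 0.35 in Sox4 and 0.50 in Sox12 on the log2 scale.

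Sox11 made up most of the SoxC transcripts with either virus. Sox11 was 20.8% and 27.9% of the summed SoxC TPM in the control libraries. It was 94.0% and 96.4% with Sox11, and 95.6% and 92.0% with Sox11 K91A. Sox4 and Sox12 together were at 217 and 190 TPM in control and between 132 and 146 TPM in the 4 transduced libraries. Sox11 RNA exceeded Sox4 RNA 17.6 to 39.4 times in transduced libraries, whereas in control it was 0.43 and 0.61 of it.

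**Figure D4:**
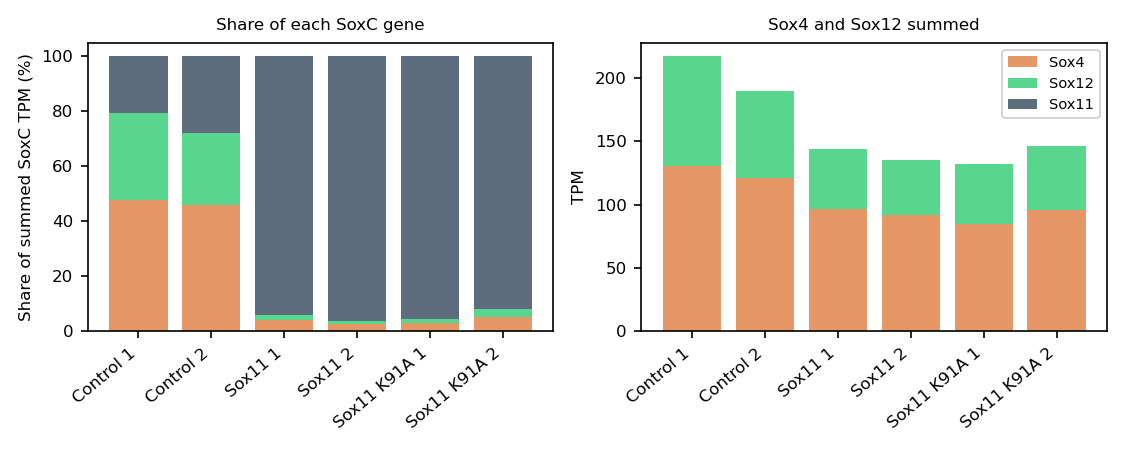
Left, share in percent of Sox4, Sox12 and Sox11 in their summed TPM in each library, and right, stacked TPM of Sox4 and Sox12. Sox11 makes up 92.0% or more in the transduced libraries, and the summed Sox4 and Sox12 TPM is at most 146 there against at least 190 in control.

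Whether Sox4 and Sox12 moved by different amounts was examined with their ratio within each library, which does not depend on the scaling of libraries. Sox4 was 1.51 and 1.77 times as abundant as Sox12 in control, 2.02 and 2.14 times with Sox11, and 1.78 and 1.88 times with Sox11 K91A. All 4 transduced libraries lay above both control libraries, although Sox11 K91A 1 was only just above Control 2. The mean log2 ratio was 0.96 ± 0.116 (SD, n = 4) in transduced and 0.71 ± 0.160 (SD, n = 2) in control libraries, a difference of 0.25 with p = 0.133 by a two-sided exact permutation test. This is the smallest p that the test can give with 15 splits, because it doubles the share of splits in a tail. It could therefore not reach 0.05. The difference was 0.14 without Control 1 and 0.37 without Control 2.

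Among the 4 transduced libraries, Sox12 stood in the reverse order of Sox11 in TPM but not in CPM. It was lowest, at 43.01 TPM, in Sox11 2, where Sox11 was highest, and highest, at 50.74 TPM, in Sox11 K91A 2, where Sox11 was lowest. The other libraries lay in between, with 47.58 TPM in Sox11 K91A 1 and 47.78 TPM in Sox11 1. In CPM the last pair broke the order, since Sox12 was at 103 in Sox11 K91A 1 and 102 in Sox11 1, while Sox11 was at 11971 and 9178. Sox4 did not follow the order in TPM either, since its lowest value, 84.73 TPM, was in Sox11 K91A 1. The order of 4 libraries is given as a description, and Sox11 2 also differed from the others in Xist.

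Since Sox4 and Sox12 were both lower in every transduced library, their promoters are shown, as the 250 bases before the RefSeq start on GRCm38.p6, 5′ to 3′ on the minus strand. Capitals mark CCAAT on either strand, so ATTGG is its reverse complement, a motif that was chosen after the promoters were seen.
Sox4, chr13:28953700-28953949: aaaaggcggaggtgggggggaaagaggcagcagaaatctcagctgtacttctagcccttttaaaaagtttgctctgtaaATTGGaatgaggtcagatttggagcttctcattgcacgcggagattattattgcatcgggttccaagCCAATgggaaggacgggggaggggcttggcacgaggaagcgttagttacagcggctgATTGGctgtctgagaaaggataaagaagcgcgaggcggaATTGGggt
Sox12, chr2:152398047-152398296: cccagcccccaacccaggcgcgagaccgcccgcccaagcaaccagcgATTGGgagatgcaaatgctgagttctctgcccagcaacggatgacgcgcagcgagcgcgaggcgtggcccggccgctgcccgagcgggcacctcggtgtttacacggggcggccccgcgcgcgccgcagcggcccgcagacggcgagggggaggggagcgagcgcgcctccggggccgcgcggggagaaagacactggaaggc
CCAAT occurred 4 times in the Sox4 window and 1 time in the Sox12 window, and 1 time in the corresponding Sox11 window, with no overlap between matches. It occurred in 33.9% of all 32851 promoter windows of the same length. The letters ACAAAG and ACAAT, which resemble sequences that Sox proteins bind, occurred on either strand in 16.5% and 27.7% of all windows and in none of the 3 SoxC windows. GC content was 50.8% for Sox4 and 74.4% for Sox12, against a median of 52.4%. A match is a description of these letters and not a binding site.

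The other Sox genes were far less abundant and mostly not called. Of the 16 genes, 9 passed the filter on low counts. Sox13, a SoxD gene without an activation domain of its own, was the only one called, and it was higher with both viruses. It was at 0.40 and 0.66 TPM in control, 4.26 and 9.45 TPM with Sox11, and 5.70 and 4.88 TPM with Sox11 K91A. The groups did not overlap, and Sox11 2 was highest. The log2 fold changes were 3.25 ± 0.576 (SE, adjusted p = 0.0167, limma-voom) and 2.97 ± 0.582 (adjusted p = 0.0295). Leaving out 1 library gave 2.74 to 3.71 with Sox11 and 2.65 to 3.37 with Sox11 K91A. Each call was lost in some of these fits, which include fits in which no gene was called.

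The remaining Sox genes are described by their levels. Sox5 and Sox6, the other SoxD genes, lay between 6.23 and 20.61 TPM and between 0.91 and 1.89 TPM, with log2 differences of 0.55 and 0.57 with Sox11 and 0.58 and 0.37 with Sox11 K91A. Sox2, which maintains retinal progenitors, varied from 0.50 to 10.14 TPM, and its lowest values were in Control 2 and Sox11 2. The amacrine markers Tfap2a, Tfap2b, Gad1 and Slc32a1 also had their lowest values in these libraries, whereas Gad2 and Slc6a9 did not. Which cells the Sox2 RNA came from was not tested. Sox9, a gene of progenitors and Mueller glia, was at 1.07 TPM or lower in every library, with log2 differences of -1.66 (adjusted p = 0.171) and -2.94 (adjusted p = 0.0919). Sox21 was at 3.05 TPM in Control 1 and at 0.45 TPM or lower elsewhere. Sox3, Sox8 and Sox30 stayed under 1 TPM. Sox1 and Sox14 were listed at 0 in every library, and Sox7, Sox10, Sox15, Sox17 and Sox18 stayed at 0.23 TPM or lower. The median log2 difference of the 9 tested genes was 0.55 with Sox11 and 0.37 with Sox11 K91A, against 0.01 and 0.02 over all genes. Of the 9, 5 and 6 lay above 0. With Sox11 they ranged from -5.12 for Sox21 to 3.25 for Sox13. Sox30, with 11 and 15 counts with Sox11, passed the filter on low counts only through these libraries. Sox8, Sox9 and Sox21 would not have passed without the control libraries, where they were highest. The directions of these genes, and the medians and counts that include them, are therefore not evidence of a response.

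The reported targets of SoxC proteins were 11 genes known to depend on or to be bound by Sox4 or Sox11 in neurons. All were tested, and 2 were called higher with each virus and none lower, beside 9.96% of all genes called higher with Sox11 and 5.81% with Sox11 K91A. With so few genes the count says little about the list. Dcx, which encodes the microtubule-associated protein doublecortin of migrating and growing neurons, was at 81.6 and 54.3 TPM in control, 298 and 420 TPM with Sox11, and 317 and 252 TPM with Sox11 K91A. All transduced libraries were more than 3 times as high as either control library. The log2 fold changes were 2.33 ± 0.211 (SE, adjusted p = 0.00753, limma-voom) and 2.04 ± 0.210 (adjusted p = 0.0117). Leaving out 1 library gave 2.07 to 2.59 with Sox11 and 1.885 to 2.19 with Sox11 K91A. The calls were lost only in fits in which no gene was called.

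Map2, which encodes a microtubule-associated protein of dendrites, was at 289 and 196 TPM in control, 556 and 922 TPM with Sox11, and 616 and 512 TPM with Sox11 K91A. The groups did not overlap, and Sox11 2, with the most Sox11 RNA, again had the highest value. The log2 fold changes were 1.40 ± 0.241 (SE, adjusted p = 0.0161, limma-voom) and 1.08 ± 0.240 (adjusted p = 0.0385). Leaving out 1 library gave 1.05 to 1.75 with Sox11 and 0.94 to 1.21 with Sox11 K91A. The call with Sox11 was lost only where no gene was called, and that with Sox11 K91A also in other fits.

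The other 9 targets did not pass. Tubb3, the neuronal tubulin gene, was at 1360 and 1161 TPM in control and between 1643 and 1791 TPM in transduced libraries, so the groups did not overlap, but the log2 differences of 0.32 and 0.45 had adjusted p-values of 0.140 and 0.0806 (limma-voom). Tead2, a target bound by Sox11 in other neurons, was at 1.37 and 1.29 TPM in control and 1.66 to 4.54 TPM in transduced libraries, with log2 differences of 1.45 in both comparisons. With 8 and 29 counts in control, Tead2 passed the filter on low counts only through the transduced libraries, so its direction is not evidence of a response. The RGC transcription factor genes Pou4f1, Pou4f2 and Isl1 had log2 differences of -0.17, -0.07 and 0.05 with Sox11 and -0.16, -0.32 and 0.08 with Sox11 K91A. Their intervals all included 0. Plxna1 and Nrcam, which encode a receptor and an adhesion molecule of the optic chiasm, had log2 differences of 0.46 and -0.01 with Sox11 and 0.53 and 0.05 with Sox11 K91A. Plxna1 was at 100.93 TPM in Control 1 and 44.08 TPM in Control 2. Its log2 difference with Sox11 was 0.99 without Control 1 and -0.07 without Control 2, and with Sox11 K91A 1.065 and -0.002. The sign of Nrcam also turned between these fits. Neurod1, a proneural factor gene, was at 36.29 TPM in Control 1 and 14.01 TPM in Control 2, and Hes5, a Notch target, was at 3.01 TPM or lower in every library. The median log2 difference of the 11 genes was 0.32 with Sox11 and 0.08 with Sox11 K91A.

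POU class III factors are partners of SoxC proteins at some enhancers, and 3 of their 4 genes were tested. Pou3f1 fell with both viruses. It was at 31.83 and 28.66 TPM in control, 9.38 and 7.01 TPM with Sox11, and 6.57 and 9.66 TPM with Sox11 K91A, with no overlap. The log2 fold changes were -2.003 ± 0.225 (SE, adjusted p = 0.0112, limma-voom) and -1.98 ± 0.224 (adjusted p = 0.0124). Leaving out 1 library gave -2.21 to -1.77 with Sox11 and -2.26 to -1.69 with Sox11 K91A. These calls were lost only in fits in which no gene was called. Pou3f2 was at 2.20 and 1.33 TPM in control and 0.53 to 0.79 TPM in transduced libraries, with log2 differences of -1.30 (adjusted p = 0.0501) and -1.42 (adjusted p = 0.0573). Pou3f3 had log2 differences of 2.55 (adjusted p = 0.0678) and 3.05 (adjusted p = 0.0552), at levels of 0.01 and 0.02 TPM in control and 0.09 to 0.19 TPM in transduced libraries. These were 1 and 3 counts in control and 9 to 22 in transduced libraries. Pou3f3 thus passed the filter on low counts only through the transduced libraries, so its direction is not evidence of a response. Pou3f4 was not tested and stayed at 0.27 TPM or lower.

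**Figure D5:**
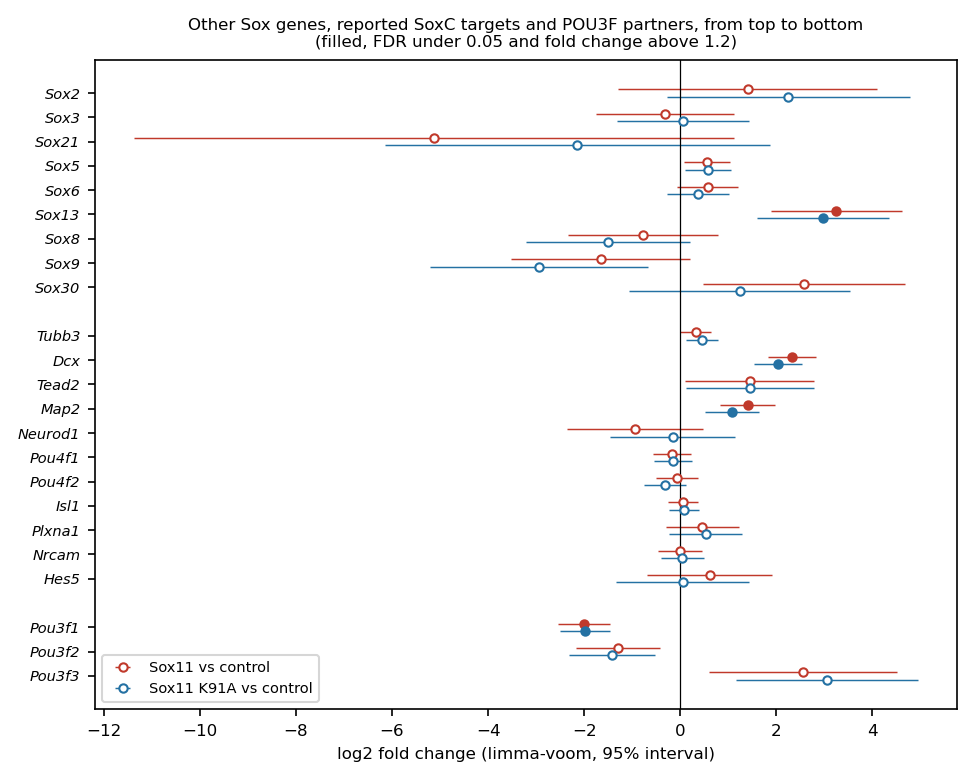
Log2 fold changes with 95% intervals of 9 other Sox genes, 11 reported SoxC targets and 3 POU3F partners, from top to bottom, for Sox11 against control and Sox11 K91A against control. Filled points passed the test, which are Sox13, Dcx and Map2 above 0 and Pou3f1 below 0.

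Genes next to the SoxC genes were examined to see whether Sox4 and Sox12 moved with their surroundings. Within 200 kb lay 32 annotated genes, of which 11 were tested. With Sox11, 1 was higher and 3 were lower, and with Sox11 K91A 1 was lower, beside 20.1% and 10.6% of all genes called. The 3 lower genes all lie near Sox12. Zcchc3, 13.9 kb away, fell by 0.77 on the log2 scale with Sox11 (adjusted p = 0.0260, limma-voom) and by 0.91 with Sox11 K91A (adjusted p = 0.0273). Nrsn2, 17.0 kb away, encodes a neuronal vesicle protein and had log2 differences of -2.10 (adjusted p = 0.0235) and -1.43 (adjusted p = 0.0684). Trib3, 49.6 kb away, encodes a stress-induced pseudokinase and had log2 differences of -2.70 (adjusted p = 0.0319) and -2.13 (adjusted p = 0.0607). The other 5 tested genes closer than 120 kb to Sox12 were not called. Near Sox4, the noncoding gene 2610307P16Rik, 63.3 kb away, had log2 differences of 3.91 (adjusted p = 0.0269, limma-voom) and 3.24 (adjusted p = 0.0616). It had 8 and 16 counts in control and 74 to 279 in transduced libraries. This gene passed the filter on low counts only through the transduced libraries, so its direction is not evidence of a response. The only tested gene near Sox11, Gm9866, lies 173.6 kb away and was not called.

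The calls of these neighbours were also lost in some fits without 1 library, which include fits in which no gene was called. With Sox11, leaving out Sox11 2 gave -0.76 for Zcchc3, -1.25 for Nrsn2, -1.93 for Trib3 and 3.21 for 2610307P16Rik. Without Control 2, Nrsn2 was at -2.23, Trib3 at -2.53 and 2610307P16Rik at 4.18. In the leave-out fits Zcchc3 lay between -0.85 and -0.70 with Sox11 and between -1.04 and -0.77 with Sox11 K91A.

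The genes most like each SoxC gene over the 6 libraries were named by the Pearson correlation of log2 CPM among 10980 genes with at least 5 CPM. The gap between control and transduced libraries sets most of each correlation, so these are descriptions. For Sox4 they were Gprasp2 (r = 0.999), Pgbd5 (0.998) and Efhd2 (0.998). Efhd2, which encodes a calcium-binding protein, went from 59.0 and 60.5 CPM in control to between 18.7 and 24.8 in transduced libraries. For Sox11 they were Sinhcaf (r = 0.9996), Gpc2 (0.9996) and B4galt7 (0.9995). Gpc2, which encodes a glypican of developing neurons, went from 85.6 and 105 CPM in control to 646 and 873 with Sox11 and 730 and 593 with Sox11 K91A, in the same order of libraries as Sox11. For Sox12 they were Shmt2 (r = 0.999), Opa3 (0.998) and Mpp2 (0.997). Shmt2, which encodes a mitochondrial enzyme of serine and glycine metabolism, was at 20.1 and 16.9 CPM in control and 9.92 to 12.1 in transduced libraries.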

How the data were processed

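RNA-seq was done on 6 libraries of cultured mouse RGCs, in 3 groups of 2 set by the transduction label. The authors used STAR for alignment to mm10 and RSEM for quantification, and from these they deposited an expected count and a TPM value for each gene of a library. The expected count is RSEM's estimate of reads and was not normalized by the authors. Versions, annotation and use of strand are not given in the sources used here. Genes were matched to GENCODE M21 on GRCm38 without the version of the identifier (42462 of 43346 matched), and 26248 numbered and 96 spike-in entries were left out, with at most 1 count in a library.

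Expected counts were rounded, filtered with filterByExpr and scaled with TMM factors (0.985 to 1.04), which left 15747 genes. All libraries entered a single limma-voom fit (limma 3.58.1, edgeR 4.0.16, R 4.3.3) without covariate, with two-sided tests, Benjamini-Hochberg adjustment over all genes tested, FDR under 0.05 and fold change above 1.2, as in the methods of the study. The adjusted p-values are from this fit unless another tool is named. The ratio of Sox4 to Sox12 used an exact permutation test (scipy 1.17.1). Depth was 27521981 to 37061718 counts, so that each SoxC gene had at least 2791 counts and the spread between 2 libraries, not counting error, limits precision. Duplicates differed beyond sampling noise (chi-square per degree of freedom 19.8 to 92.4) and were kept as 2 libraries. Simulated counts were also run through the fit, with planted changes larger than those of Sox4 and Sox12. Their outcome is not given here, and they cannot show how well changes of this size are found.

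Proteins were translated from GENCODE coding sequences in place of RefSeq proteins, and aligned with Biopython 1.88. Promoters were from RefSeq. The corresponding site of Sox12 is not reported here. The SoxC genes, gene lists, rule for named genes (all genes of the lists, and the 3 genes most correlated with each SoxC gene) and alternatives were chosen with earlier results of these data known. Alternatives were edgeR quasi-likelihood, DESeq2 (1.42.0), sample quality weights, log2 TPM, other scalings and filters, unrounded counts, blocks for replicate number or Xist level, only the 2 groups compared, and leaving out each library.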

Additional observations from a re-analysis of the deposited data

How the results depend on the processing

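Against control, Sox4, Sox11 and Sox12 kept their direction in every setting run. Sox4 with Sox11 was no longer called with sample quality weights (log2 -0.51), log2(TPM + 1) (-0.41), log2(TPM + 0.1) (-0.42), only the 2 groups (-0.51), or the libraries with less Xist left out (-0.46). With Sox11 K91A, Sox4 was called with DESeq2 (-0.55), library size alone (-0.57), at least 10 counts in every library (-0.54), a block for Xist level (-0.55), or the libraries with less Xist left out (-0.53), and Sox12 was not called with log2(TPM + 1) (-0.64) or log2(TPM + 0.1) (-0.65). Leaving out each library gave ranges with Sox11 of -0.55 to -0.47 for Sox4, 5.04 to 5.71 for Sox11 and -0.96 to -0.76 for Sox12, and with Sox11 K91A of -0.63 to -0.45, 4.66 to 5.42 and -0.81 to -0.60. Between the viruses the ranges were -0.12 to 0.06, -0.72 to 0.04 and 0.07 to 0.24, with Sox4 turning to 0.0163 without Sox11 1 and 0.0644 without Sox11 K91A 1, and Sox11 to 0.0442 without Sox11 K91A 2. The difference in the log2 ratio of Sox4 to Sox12 between transduced and control libraries, 0.25, ranged from 0.14 without Control 1 to 0.37 without Control 2.

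The genes called with Sox11 numbered 3171, and 979 with quality weights, 2107 with log2(TPM + 0.1), 1637 with only the 2 groups, 1630 without the libraries with less Xist, and 0 (without Sox11 2) to 3742 in the leave-out fits. With Sox11 K91A they numbered 1672, and 3144 with DESeq2, 936 with log2(TPM + 1), 896 with log2(TPM + 0.1), 2894 with the Xist block, 3871 without the libraries with less Xist, and 0 (without Control 2 or Sox11 K91A 1, where 4703 and 1915 genes had an unadjusted p under 0.05) to 2529 in the leave-out fits. Between the viruses DESeq2 called 2 and limma-voom 0. The cause of these changes was not tested. The alternatives without both Control 2 and Sox11 2, and with crossed numbers, were chosen after seeing the data.

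The shared replicate numbers were not shown to pair libraries, since same-numbered deviations correlated at 0.26 for control and Sox11, -0.04 for control and Sox11 K91A, and -0.28 for Sox11 and Sox11 K91A. A replicate block called 2679 and 1402 genes in the comparisons with control and gave -0.51 for Sox4 with Sox11, which was no longer called. It changed no other call of the 3 genes. Crossing the Sox11 K91A numbers in the block called 4076 and 2753 genes. TMM-scaled CPM per kb gave the same order of control levels, at 64.0, 39.1 and 34.0 for Sox4, Sox12 and Sox11.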
